A study of Mus musculus with 6 samples.

Results

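The 39 genes described here encode parts of the autophagy machinery and of the lysosome, the compartment in which cells digest cargo. They were taken by name, each through its brightest probe set over all arrays, from 12393 genes with a named probe set. Of these 39, 15 belong to the autophagy machinery, 23 are lysosomal membrane proteins, enzymes or parts of the proton pump, and 1, Tfeb, encodes a transcription factor for both groups. Mouse multiple myeloma cells, labelled as malignant plasma cells with bone marrow as their source, spent 12 h in medium free of serum, either with 100 ng/ml of the growth factor IGF-1 (3 arrays) or with none added (control, 3 arrays). Every sample was thus deprived of serum, and the labels used here name no line, strain, age or sex. The labels do not tell separate cultures or animals from repeats of 1 preparation, so the spread behind each p-value may be technical.

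In autophagy, a double membrane grows around cytoplasm and closes into an autophagosome, which fuses with a lysosome. The ULK1 kinase complex starts the process, a Beclin 1 complex makes the lipid PI3P on which WIPI proteins settle, and a conjugation system led by ATG7 attaches LC3 and GABARAP proteins to the growing membrane. Insulin and IGF signalling through mTORC1 is known to restrain ULK1 and to keep TFEB out of the nucleus, and plasma cells are known to rely on autophagy to bear their antibody output.

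All values are MAS5 signals, a linear intensity per probe set scaled by the authors to 1 common mean per array. Differences are IGF-1 minus control on the log2(signal + 15.57) scale with their standard error (SE), tested by limma, and a gene passed when its p, adjusted over all 11313 probe sets tested, was below 0.05. All 39 members lay above the filter on mean signal, 18 of them with several tested probe sets. Over all 6895 genes tested, 486 (7.05%) were higher and 555 (8.05%) lower past the threshold. When the arrays were instead scaled to 9 hybridization control probe sets, the median of all probe sets moved up by 0.22, and the shares of genes became 18.2% higher and 2.44% lower. The 3′ to 5′ signal ratio of actin, a measure of RNA integrity, was 1.17 to 1.31 in controls and 1.16 to 1.23 with IGF-1. Of 11 tested plasma cell markers 4 fell and 0 rose. These were Tnfrsf17, Slamf7, Pim2 and Eaf2 (-0.51, -0.62, -0.85 and -0.60), and each held with any 1 array left out. With scaling to the hybridization controls 1 fell, Pim2 (-0.63, adjusted p = 0.012). The plasma cell genes Sdc1 and Jchain, at 895 and 4377 on average over the 6 arrays, did not pass.

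With the deposited scaling, transcripts of the autophagy machinery leaned downward with IGF-1. Of 15 members 3 fell, 0 rose and 12 did not pass, against 8.05% lower and 7.05% higher over all genes tested. Those that fell were Map1lc3b, Gabarapl2 and Ulk1, an LC3 protein, a GABARAP protein and the starting kinase. By sign, 12 of the 15 differences were below 0, against 51.3% of all genes, and the median was -0.28, against -0.01 over all genes. In 7 members all IGF-1 arrays lay below all control arrays (18.2% of all genes) and in 2 members above them (17.1% of all genes). With scaling to the hybridization controls 0 members fell and 2 rose, Gabarap and Sqstm1, and the median was -0.05. Relative to the shift of all probe sets that median was -0.27. This scaling divides each array by 1 factor, so a return to near -0.28 was fixed in advance and is no further test. The count of falls was 0 without IGF-1 1, and 1 without control 2, control 3 or IGF-1 3.

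Map1lc3b encodes LC3B, the lipid-anchored protein by which autophagosomes are usually recognised. Its brightest probe set (1415930_a_at) read 1464, 1438 and 1545 in the controls and 1069, 1217 and 1097 with IGF-1. Every IGF-1 array lay below every control array, a 1.31-fold fall with a log2 difference of -0.39 ± 0.09 (SE, n = 3 per group, limma adjusted p = 0.016). Leaving out IGF-1 1 or IGF-1 3 ended the call (adjusted p 0.0523 and 0.06), as did scaling to the hybridization controls (-0.15, adjusted p = 0.42). All 3 tested probe sets of the gene fell. The next brightest (1415929_at) went from 861 ± 108 to 587 ± 39.3 (SD, n = 3), a difference of -0.54 that held with any 1 array left out. The dimmest (1415928_a_at, -0.43) lost its call without each of 5 arrays, all but IGF-1 1 (adjusted p 0.0673 to 0.142). The sign of all 3 stayed negative in these fits.

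Gabarapl2, also called GATE-16, is a relative of LC3 that acts late in autophagosome formation. Its signals were 634, 705 and 702 in the controls and 485, 519.5 and 539 with IGF-1, with no overlap. The difference was -0.39 ± 0.09 (SE, adjusted p = 0.019). Leaving out control 2 or 3 or IGF-1 1 or 2 ended the call (adjusted p 0.0558 to 0.0662), and so did the other scaling (-0.16, adjusted p = 0.46). Of the other GABARAP genes, Gabarapl1 had a difference of -0.30 ± 0.12 (adjusted p = 0.12). Gabarap had the opposite sign, at 1775, 1840 and 2051 in the controls and 2203, 2376 and 2229 with IGF-1. This difference of 0.26 ± 0.09 did not pass (adjusted p = 0.07), although the groups did not overlap, and it passed with scaling to the hybridization controls (0.50, adjusted p = 0.0053). By sign the 4 LC3 and GABARAP genes did not share a direction, though with the deposited scaling the opposite difference of Gabarap did not pass.

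The promoters of the pair that fell are shown because these genes encode proteins of the same conjugated family. They run from 250 bases before to 50 bases after the gene start (RefSeq, GRCm38.p6), and none of the motifs searched further on occurs in them.
Map1lc3b promoter (chr8:121590188-121590487, plus strand): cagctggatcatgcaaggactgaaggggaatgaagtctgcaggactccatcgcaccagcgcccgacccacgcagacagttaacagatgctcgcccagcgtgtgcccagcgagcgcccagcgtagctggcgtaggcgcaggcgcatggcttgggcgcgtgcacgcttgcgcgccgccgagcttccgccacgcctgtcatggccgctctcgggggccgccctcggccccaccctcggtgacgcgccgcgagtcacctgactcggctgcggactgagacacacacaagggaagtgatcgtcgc
Gabarapl2 promoter (chr8:111940453-111940752, plus strand): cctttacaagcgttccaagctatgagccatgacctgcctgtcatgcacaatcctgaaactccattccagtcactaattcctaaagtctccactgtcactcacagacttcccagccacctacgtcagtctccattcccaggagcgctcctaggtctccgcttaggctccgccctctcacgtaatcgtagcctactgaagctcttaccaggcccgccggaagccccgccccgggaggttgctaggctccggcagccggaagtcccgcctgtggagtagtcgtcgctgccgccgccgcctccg

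Among the genes that start autophagy, Ulk1 read 171, 176 and 165 in the controls and 115, 141 and 121 with IGF-1. The groups did not overlap and the difference was -0.41 ± 0.11 (SE, adjusted p = 0.037). It was the least stable of the 3 falls, being lost without any 1 array except IGF-1 2 (adjusted p 0.0711 to 0.107), with quantile normalization, with the mean of the probe sets of the gene and with the scaling to hybridization controls (-0.19). A dimmer probe set of Ulk1 gave -0.17 ± 0.18 (adjusted p = 0.56). Its relative Ulk2 had a difference of -0.02 ± 0.13, and Becn1, which encodes Beclin 1, one of -0.23 ± 0.12 (adjusted p = 0.21).

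Neither PI3P-binding gene passed by its brightest probe set. Wipi1 went from 280.2 ± 26.8 to 227 ± 14.7 (SD, n = 3; difference -0.28 ± 0.11, adjusted p = 0.1) and Wipi2 from 70.1 ± 5.64 to 45.4 ± 15.2 (-0.52 ± 0.20, adjusted p = 0.1), both with no overlap. The probe sets of Wipi1 disagreed. The brightest (1439060_s_at) and the dimmest tested (1427323_s_at) may match several transcripts by their suffix. Without such probe sets Wipi1 passed as lower, and 4 autophagy members fell in place of 3. The second brightest (1424917_a_at) fell by 0.49 (adjusted p = 0.03, but 0.0809 to 0.0977 once control 2 or 3 or IGF-1 1 or 3 was dropped), and the third (1427323_s_at) had a difference of -0.05.

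No gene of the conjugation system passed. Atg7, the activating enzyme, went from 146 ± 19.8 to 110.3 ± 5.41 (difference -0.36 ± 0.12, adjusted p = 0.079), and Atg12 from 256 ± 29.6 to 208 ± 6.17 (-0.28 ± 0.11, adjusted p = 0.11), without overlap. Atg3, which transfers LC3 to lipid, Atg5 and Atg16l1 had overlapping groups and differences of -0.10, 0.05 and -0.08. Sqstm1, which encodes the cargo receptor p62 and is itself consumed by autophagy as a protein, read 1933, 2157 and 2035 in the controls and 2240.3, 2173 and 2247 with IGF-1. Its groups did not overlap, but the difference of 0.12 ± 0.08 did not pass (adjusted p = 0.36). It passed with scaling to the hybridization controls (0.36, adjusted p = 0.034).

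**Figure D1:**
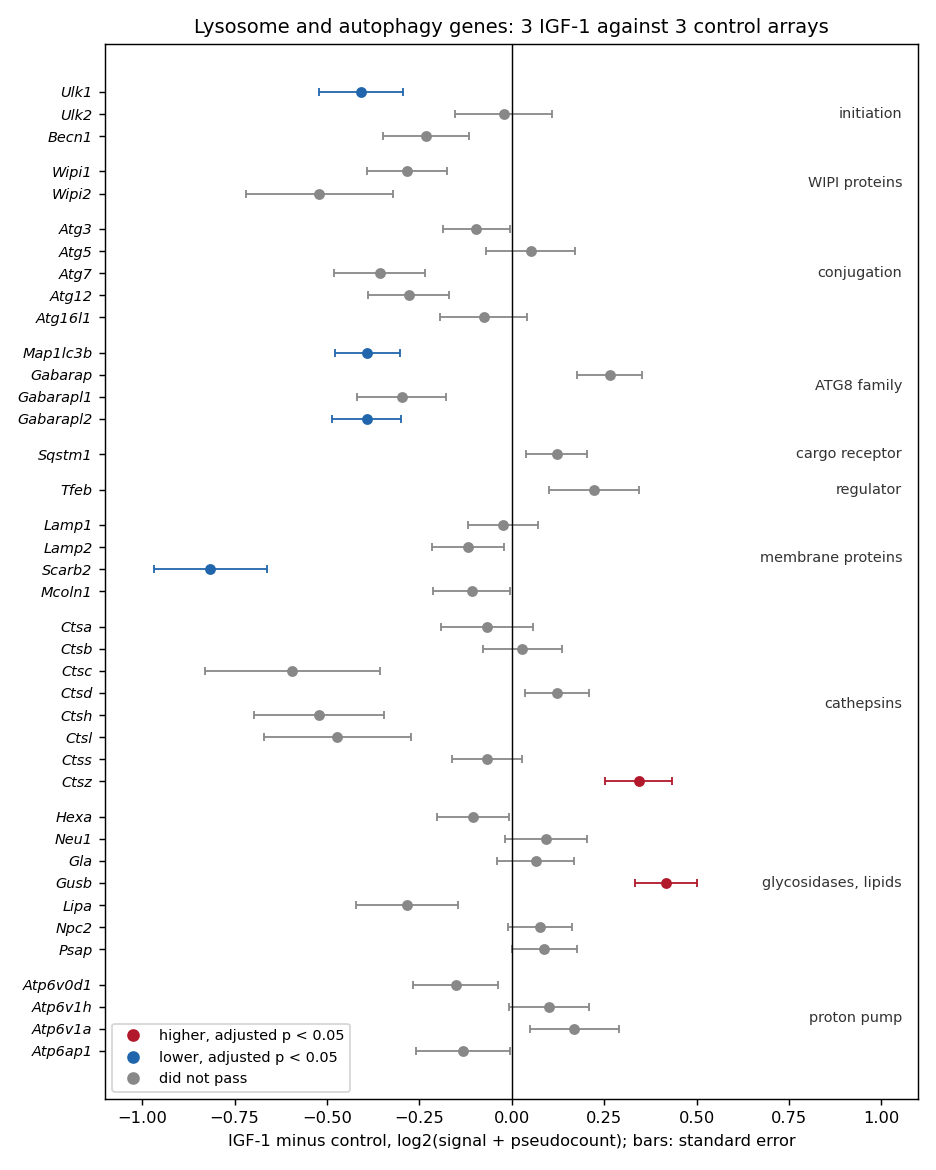
Log2 difference (IGF-1 minus control) of the 39 members by role, with standard errors, each gene by its brightest probe set. With the deposited scaling 12 of 15 autophagy genes lie left of 0, with Gabarap, Atg5 and Sqstm1 on the right (9 of 15 lie left with scaling to the hybridization controls), while lysosomal genes lie on both sides, from -0.82 (Scarb2) to 0.42 (Gusb).

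Lysosomal transcripts showed no common direction. Of 23 members 2 rose, 1 fell and 20 did not pass, against 7.05% higher and 8.05% lower over all genes. Gusb and Ctsz rose and Scarb2 fell. The median was -0.07, with 10 differences above 0 and 13 below. It turned positive without control 2 (0.01) and with scaling to the hybridization controls (0.17). Relative to the shift of all probe sets it was then -0.04, again near the first value by construction. That scaling gave 5 rises and 1 fall, adding Ctsd, Npc2 and Atp6v1a, where 18.2% of all genes were higher and 2.44% lower. All IGF-1 arrays were above all control arrays in 3 members and below in 1 (17.1% and 18.2% of all genes). Only 1 rise was left when any array but IGF-1 1 was dropped, and falls numbered 3 without control 1 and 2 without IGF-1 3. Set beside the autophagy machinery, 1 of 23 against 3 of 15 fell and 2 of 23 against 0 of 15 rose. The difference between these counts was not tested.

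Scarb2 had the largest change of the 39 genes by its brightest probe set. It encodes LIMP-2, a lysosomal membrane protein that carries the enzyme β-glucocerebrosidase to lysosomes. Its signals were 257, 293 and 262 in the controls and 119, 137 and 192 with IGF-1, so that the groups stood clear of each other, with IGF-1 3 nearest the controls. This was a 1.76-fold fall of the signal plus 15.57 (log2 difference -0.82 ± 0.15, SE, n = 3 per group, adjusted p = 0.0073). A second probe set fell alike, from 222 ± 30.1 to 122 ± 28.3 (SD, n = 3; -0.80 ± 0.17, adjusted p = 0.011). The call held with any 1 array left out (highest adjusted p 0.0354) and under the other scaling (-0.59, adjusted p = 0.018). The other membrane proteins did not pass. Lamp1, a major glycoprotein of the lysosomal membrane, read 1763, 1828 and 1579 in the controls and 1549, 1768 and 1768 with IGF-1, with overlapping groups and a difference of -0.02 ± 0.09. Lamp2 and the calcium channel gene Mcoln1 had differences of -0.12 and -0.11, and 4 of 4 tested probe sets of Lamp2 did not pass.

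Gusb encodes β-glucuronidase, which trims glycosaminoglycans. It read 1068, 983 and 1044 in the controls and 1363, 1429 and 1355 with IGF-1, with every IGF-1 array above every control. The rise was 1.34-fold (0.42 ± 0.08, SE, adjusted p = 0.0095) and held with any 1 array left out (highest adjusted p 0.0468). A second probe set rose by 0.53 ± 0.11 (adjusted p = 0.013, but 0.0518 without IGF-1 3). The other glycosidase and lipid-handling genes did not pass. Hexa, Neu1 and Gla, which remove sugars from glycolipids or glycoproteins, had differences of -0.11, 0.09 and 0.06. Lipa, the acid lipase for cholesteryl esters, had one of -0.28 ± 0.14 (adjusted p = 0.19). Npc2, which binds cholesterol in the lysosome, went from 6291 ± 366 to 6638 ± 432 (0.08), and Psap, the precursor of the saposins, had a difference of 0.09.

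The promoters of the member with the largest fall and the member with the largest rise follow, over the same span and from the same source.
Scarb2 promoter (chr5:92505608-92505907, minus strand): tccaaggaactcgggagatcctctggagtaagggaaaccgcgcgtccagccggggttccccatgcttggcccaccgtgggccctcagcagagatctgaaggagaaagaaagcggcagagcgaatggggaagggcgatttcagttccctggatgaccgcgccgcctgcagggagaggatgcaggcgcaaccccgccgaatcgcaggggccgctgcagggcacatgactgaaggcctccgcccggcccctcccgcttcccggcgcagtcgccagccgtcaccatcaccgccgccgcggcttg
Gusb promoter (chr5:130003000-130003299, minus strand): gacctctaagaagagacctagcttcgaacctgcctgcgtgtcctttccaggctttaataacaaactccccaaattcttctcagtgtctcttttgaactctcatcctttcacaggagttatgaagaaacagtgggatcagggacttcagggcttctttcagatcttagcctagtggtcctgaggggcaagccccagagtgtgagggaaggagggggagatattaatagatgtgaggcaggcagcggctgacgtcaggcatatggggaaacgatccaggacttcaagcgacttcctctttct

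Cathepsins are the proteases of the lysosome, and 1 of the 8 measured passed. That is near the share over all genes tested (7.05% higher and 8.05% lower). Ctsz, a carboxypeptidase, read 3101, 3192 and 3316 in the controls and 3757, 4484 and 3987 with IGF-1, without overlap. It rose by 0.34 ± 0.09 (SE, adjusted p = 0.03), and all 3 of its tested probe sets rose, the others by 0.36 and 0.41. The call of the brightest was lost without any 1 array except IGF-1 1 (adjusted p 0.0555 to 0.132) and without the intensity trend in the fit. Its other probe sets lost their calls when control 1 or 3 or IGF-1 2 or 3 was dropped (adjusted p 0.061 to 0.138). Ctsd, an aspartic protease, had 2567, 2959.6 and 2908 in the controls and 2995, 3134 and 3037 with IGF-1, a difference of 0.12 ± 0.09 that did not pass. Ctsa, Ctsb and Ctss had overlapping groups and differences of -0.07, 0.03 and -0.07.

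**Figure D2:**
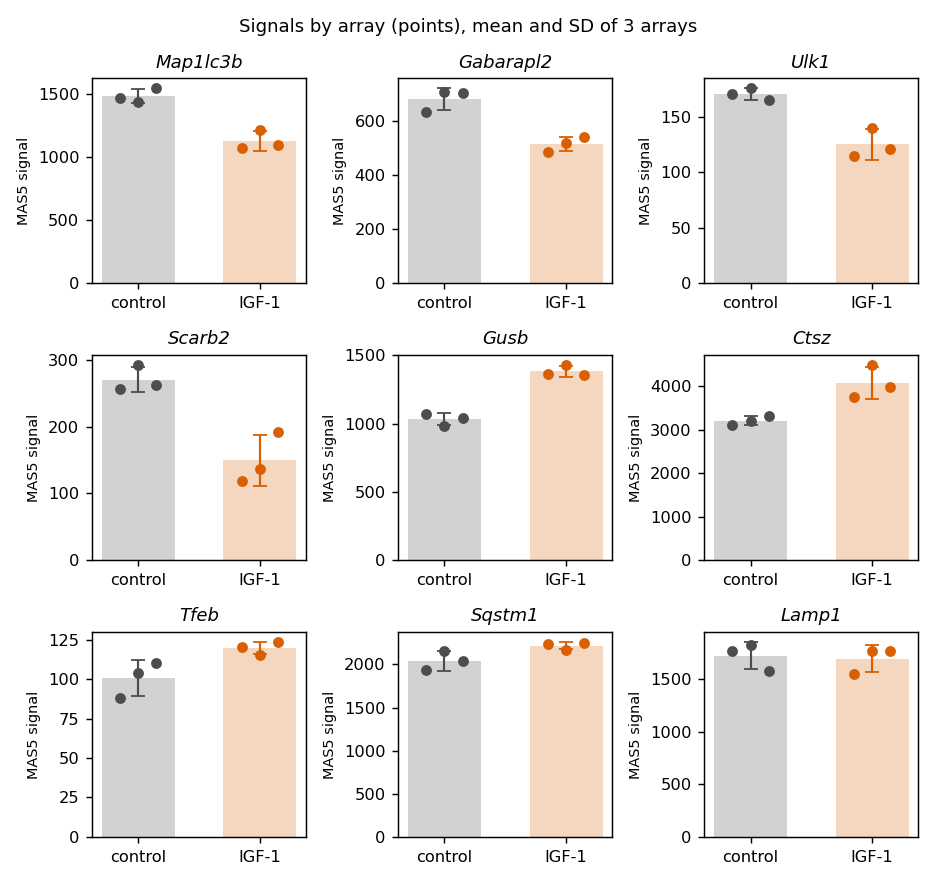
MAS5 signals of 9 members in the 3 control and 3 IGF-1 arrays (points), with the mean (bar from 0) and SD. In the upper row and in Scarb2 all IGF-1 arrays lie below all controls, in Gusb, Ctsz, Tfeb and Sqstm1 above them, and in Lamp1 the groups overlap.

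The 3 other cathepsins, Ctsc, Ctsh and Ctsl, had lower means with IGF-1 but wide spreads. Ctsc read 476, 783 and 968 in the controls and 369, 455 and 605 with IGF-1 (difference -0.59 ± 0.24, adjusted p = 0.12). Ctsh read 184, 216 and 279 against 126, 138 and 195 (-0.52 ± 0.18, adjusted p = 0.073), and Ctsl 152, 161 and 265 against 113, 120 and 163 (-0.47 ± 0.20, adjusted p = 0.14). In all 3, and in Ctsb, control 1 was the lowest and control 3 the highest control, and IGF-1 1 was the lowest and IGF-1 3 the highest IGF-1 array. This arrangement of arrays held for 4 of 8 cathepsins, 0 of 15 autophagy members and 4.38% of all probe sets tested. It was taken from the values of these cathepsins, so their own count cannot serve as a test of it. Ctsc passed without control 1 (adjusted p = 0.0168), and Ctsh when control 1 or IGF-1 3 was dropped (adjusted p 0.0475 and 0.032).

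Some macrophage and neutrophil markers fell with IGF-1. Of 15 macrophage and monocyte markers 10 were above the filter, and 5 of these fell (Csf1r, Cd14, Itgam, Mpeg1 and Ccr2) and 0 rose, against 8.05% lower over all genes. With scaling to the hybridization controls Csf1r and Cd14 were the 2 that fell. The falls numbered 6 when control 1 or IGF-1 3 was dropped and 1 when any other array was. The same arrangement of arrays held for 5 of the 10. Csf1r, the macrophage growth factor receptor, read 501, 642 and 869 in the controls and 265, 309.8 and 376 with IGF-1 (-1.02 ± 0.18, adjusted p = 0.0059), although 1 of its 3 tested probe sets passed. The summed signal of the 15 markers was 5382 to 7502 in the controls and 4025 to 6067 with IGF-1. Most of this sum came from Lyz2 (mean signal 3828), which did not pass (-0.34, adjusted p = 0.18). Of these markers C1qa, Cd163 and Marco were near the floor, with mean signals of 8.02, 6.81 and 7.09. Of 13 neutrophil markers 5 fell (2 to 6 with 1 array dropped, fewest without IGF-1 2, and 2 under the other scaling) and 0 rose, and 6 of 13 shared the arrangement. Their summed signals were 26898 to 32476 in the controls and 24454 to 27534 with IGF-1. S100a8, S100a9 and Ngp, none of which passed, made up most of that sum (mean signals 5631, 6872 and 5705). Of 5 osteoclast markers, cells rich in lysosomal proteases, 1 was above the filter and 0 changed. The part of these cells in the values of the cathepsins and other lysosomal genes was not tested, and fewer cells of a type cannot be told apart from less RNA per cell.

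**Figure D3:**
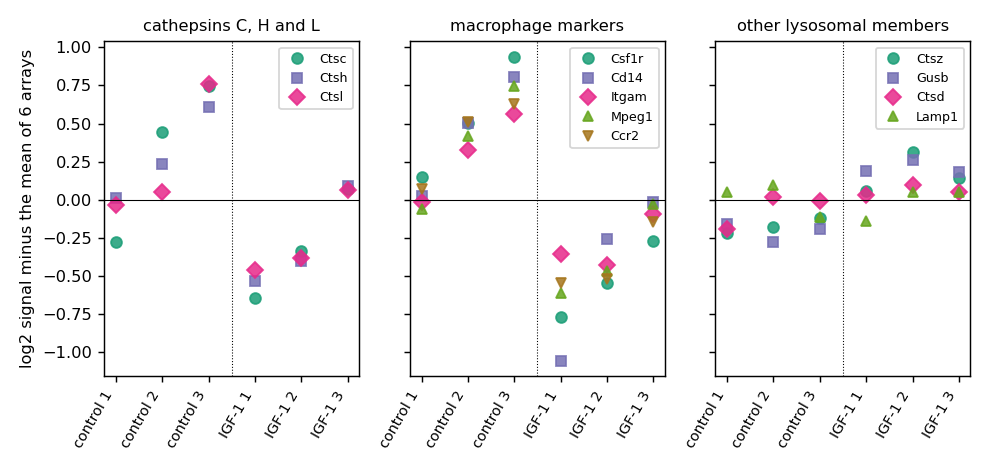
Log2 signal of each array minus the mean of the 6 arrays, for cathepsins C, H and L, for the 5 macrophage markers past the threshold, and for 4 other lysosomal members. In the first and second panels control 3 is the highest array and IGF-1 1 the lowest (for Itgam, IGF-1 2), while Ctsz and Gusb are higher in all IGF-1 arrays.

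The proton pump, or V-ATPase, acidifies the lysosome, and none of its 4 members passed. Atp6v1a, the catalytic subunit, went from 718 ± 87.0 to 809.5 ± 104 (SD, n = 3; 0.17 ± 0.12, adjusted p = 0.39), and Atp6v1h, Atp6v0d1 and the accessory subunit Atp6ap1 had differences of 0.10, -0.15 and -0.13. Of 12 tested further subunits, 0 rose and 0 fell, with differences from -0.24 to 0.27. Over all genes tested 7.05% were higher and 8.05% lower, so 0 in lists this short says little about the pump.

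Tfeb encodes a master transcription factor of lysosomal and autophagy genes. It read 87.8, 104 and 110.4 in the controls and 120.2, 116 and 123 with IGF-1, all IGF-1 arrays above all controls. The difference of 0.22 ± 0.12 did not pass (adjusted p = 0.25), with or without any 1 array. TFEB is known to bind palindromes around CACGTG in promoters of lysosomal genes. RefSeq promoters were found for 33 of the 39 members, and the 8 letters TCACGTGA, which read the same on both strands, occurred in those of 7 members (21.2%), against 304 of 27025 genes with a promoter (1.12%) and 2.47% of tested genes. The 6 letters CACGTG, which include these, occurred in 11 members (33.3%) against 8.09% of all genes and 12.5% of tested genes. The 8 letters with a G before and a C after them, and the FOXO motif GTAAACA, searched on both strands, occurred in 0 of the 33 members. Their shares were 0.37% and 4.05% of all genes and 0.79% and 3.19% of tested genes.

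The matches of the 8-letter palindrome are shown with their flanks, 30 bases each, with the palindrome in capitals (RefSeq, GRCm38.p6), so that the letters around it can be compared. Ctsa and Gla hold the palindrome at 2 places each.
Ctsa (chr2:164833749-164833778, plus strand): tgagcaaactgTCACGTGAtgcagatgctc
Ctsa (chr2:164833766-164833795, plus strand): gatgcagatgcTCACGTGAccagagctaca
Ctsd (chr7:142387908-142387937, minus strand): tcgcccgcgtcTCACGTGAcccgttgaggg
Mcoln1 (chr8:3500462-3500491, plus strand): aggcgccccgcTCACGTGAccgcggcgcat
Atp6v0d1 (chr8:105566050-105566079, minus strand): ccctactgcggTCACGTGAgacgcggtgcg
Atp6v1a (chr16:44139373-44139402, minus strand): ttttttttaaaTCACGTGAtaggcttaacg
Atg3 (chr16:45158746-45158775, plus strand): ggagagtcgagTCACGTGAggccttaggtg
Gla (chrX:134601215-134601244, minus strand): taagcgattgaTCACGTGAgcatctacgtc
Gla (chrX:134601182-134601211, minus strand): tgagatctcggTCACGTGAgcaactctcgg
None of these 7 members passed, and their log2 differences ranged from -0.15 (Atp6v0d1) to 0.17 (Atp6v1a). The palindrome and the 6 letters were found in none of the 6 members that changed. A match describes letters in this window and no binding was measured.

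A wider list of autophagy genes, none of them among the 39, was read in the same way. Of 39 listed, 26 were tested, of which 6 fell, 1 rose and 19 did not pass, with a median of -0.14, where 8.05% of all genes were lower and 7.05% higher. Wdr45, a relative of the WIPI genes, fell from 493 ± 41.1 to 305 ± 13.9 (SD, n = 3; -0.66 ± 0.10, SE, adjusted p = 0.0027). Rb1cc1, the scaffold FIP200 of the ULK1 complex, fell from 103.5 ± 2.86 to 57.9 ± 5.12 (-0.70 ± 0.13, adjusted p = 0.0062). Both held with any 1 array left out and under the other scaling (-0.43 and -0.50). The cargo receptor gene Nbr1 fell by 0.46 (adjusted p 0.0658 and 0.0643 once control 2 or IGF-1 3 was dropped), and Stx17, which serves fusion with the lysosome, by 0.50 (held only when IGF-1 3 was the array dropped, otherwise adjusted p 0.0771 to 0.111). Atg2a, a lipid carrier, fell by 0.45, a call that ended whichever of the 6 arrays was dropped (adjusted p 0.0735 to 0.149). Tmem41b, a lipid scramblase of the endoplasmic reticulum needed for autophagosomes, was the 1 that rose (0.45 ± 0.11, ended by dropping control 3 or IGF-1 2 or 3, adjusted p 0.067 to 0.0737). The falls numbered 3 whichever array was dropped. With scaling to the hybridization controls 2 fell and 3 rose, where 2.44% of all genes were lower and 18.2% higher.

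A wider list of lysosomal genes was read in the same way. Of 78 listed, 53 were tested, of which 5 rose, 0 fell and 48 did not pass, with a median of 0.01, against 7.05% of all genes higher and 8.05% lower. With scaling to the hybridization controls 8 rose and 0 fell, against 18.2% and 2.44% of all genes. Ifi30, a thiol reductase of lysosomes, rose from 617 ± 17.3 to 975 ± 47.5 (0.65 ± 0.09, SE, adjusted p = 0.0014). Smpd1, the acid sphingomyelinase, rose from 502.5 ± 54.2 to 731 ± 38.8 (0.53 ± 0.10, adjusted p = 0.0086), and the membrane protein gene Tmem192 by 0.55 ± 0.10. These 3 held with any 1 array left out. Naglu, which degrades heparan sulfate, rose by 0.43, a call that held only when control 1 was the array dropped (otherwise adjusted p 0.0554 to 0.0628). Cd68, a lysosomal glycoprotein rich in macrophages, rose by 0.41 ± 0.09 (0.0519 without IGF-1 2), the opposite direction to the 5 macrophage markers that fell. Without IGF-1 2 the rises numbered 3, and 1 gene fell without control 3.

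**Figure D4:**
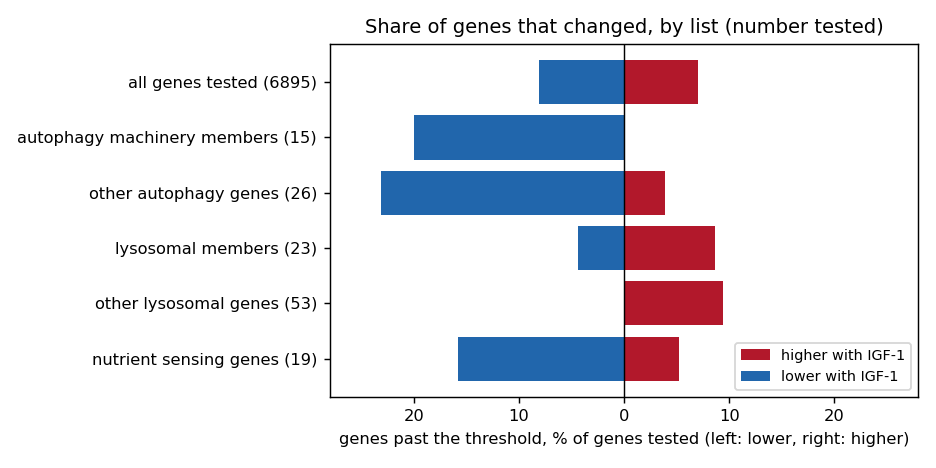
Share of tested genes past the threshold (horizontal axis, %), lower to the left and higher to the right, for each list and for all 6895 genes. Falls outnumber rises in both autophagy lists (not so with scaling to the hybridization controls, with 0 falls and 2 rises of members and 2 falls and 3 rises of other genes). Among lysosomal members 2 rose and 1 fell, an order that turned to 1 and 3 without control 1, and other lysosomal genes had 5 rises and 0 falls.

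Of 30 listed genes of nutrient sensing and of the control of autophagy, 19 were tested, of which 3 fell, 1 rose and 15 did not pass, with a median of -0.08, beside 8.05% lower and 7.05% higher over all genes. Rraga, a Rag GTPase that brings mTORC1 to the lysosome, fell from 835 ± 58.8 to 533 ± 19.98 (-0.63 ± 0.09, SE, adjusted p = 0.0024) and held with any 1 array left out, though not with scaling to the hybridization controls (-0.40, adjusted p = 0.051). Flcn, which encodes folliculin, a regulator of Rag GTPases, fell by 0.63 (ended by dropping control 2 or IGF-1 2 or 3, adjusted p 0.0544 to 0.0657). Its brightest probe set may match several transcripts by its suffix, and without such probe sets the gene did not pass. Foxo1, a transcription factor restrained by AKT, fell by 0.47 (held only when IGF-1 1 was the array dropped, otherwise adjusted p 0.0764 to 0.138). Sesn2, a leucine sensor, rose by 0.36, a call that ended whichever of the 6 arrays was dropped (adjusted p 0.0508 to 0.133). Mtor itself had a difference of -0.36 ± 0.15 (adjusted p = 0.13, and 0.0391 once IGF-1 1 was dropped). The falls in this list numbered 2 with control 1 or 3 dropped, 4 with IGF-1 1 dropped, and 1 with control 2 or IGF-1 2 or 3 dropped. With scaling to the hybridization controls 0 fell and 2 rose, beside 2.44% lower and 18.2% higher over all genes.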

How the data were processed

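Each array was deposited as a table of linear intensities, with 1 signal for every probe set. Per the submitters' processing notes, the authors used MAS5 and GCOS, with versions and scaling target not given in the sources used here. After trimming 2% of values at either end, every array had a mean of 150.1, so all arrays share 1 scale, and differences are relative to overall output. RNA was labelled from the poly(A) tail, per the labels' protocols, which weights the 3′ end. Array medians were 49.96 to 55.4, and precision is limited by having 3 arrays in a group. Of 22690 probe sets, 64 controls were left out, and 20380 carried 1 symbol, 691 several and 1555 were unlisted. Symbols came from the platform annotation, with 20351 probe sets matched by gene identifier to RefSeq GRCm38.p6. Genes were named only from probe sets with 1 symbol.

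Signals were tested as log2(signal + 15.57), where the constant is the 25th percentile of all signals, for the 11313 probe sets with a mean above 53.61, the median. Fold changes were taken on this scale too, which understates changes of dim probe sets. IGF-1 was compared with control over all 6 arrays with limma 3.58.1 in R 4.3.3 (lmFit, eBayes with an intensity trend, two-sided, Benjamini-Hochberg, threshold 0.05). Every adjusted p is from this fit or a stated alternative of it. The fit was tested on simulated data. A gene is its brightest probe set, and signals were not compared between probe sets as levels. Members and lists were chosen with earlier results of these data known, so lists carry no test and are described by counts and medians. By rule, array values are printed for members past the threshold and for Tfeb, Sqstm1, Map1lc3b and Lamp1, and up to 5 rises and 5 falls are named per further list. Array values of Gabarap, Ctsc, Ctsh, Ctsl, Ctsd and Csf1r were added after their values were seen, as was the difference of Mtor. The arrangement of arrays counted in cathepsins and markers was likewise chosen after values were seen. Alternatives covered the pseudocount, filter, normalization, intensity trend, replicate number, each array left out and the choice of probe set. Python 3.11.15 with pandas 2.3.3 and numpy 2.4.6 read the tables and matplotlib 3.10.9 drew the plots.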

Additional observations from a re-analysis of the deposited data

How the results depend on the processing

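With scaling to the 9 hybridization controls, 2310 probe sets passed in place of 1709, 2023 higher and 287 lower in place of 772 and 937. Under it 2 autophagy members passed, both higher (3, all lower, before), with 6 lysosomal members, 5 other autophagy genes, 8 other lysosomal genes and 2 nutrient sensing genes, and medians of -0.053 (autophagy members) and 0.17 (lysosomal members). Without a filter, 946 probe sets, 4 other autophagy genes and 1 nutrient sensing gene passed, in place of 1709, 7 and 4. A filter at the 70th percentile left 4 other autophagy genes, and the mean of probe sets gave an autophagy median of -0.19. With 1 array left out, 897 to 1451 probe sets passed, 0 to 2 autophagy members, 2 to 4 lysosomal members, 3 to 5 other autophagy genes, 3 to 5 other lysosomal genes and 1 to 4 nutrient sensing genes. The medians were then -0.30 to -0.20 (autophagy) and -0.090 to 0.0078 (lysosomal). Of the 21 named genes past the threshold, 14 passed without a filter, with Ulk1 and Ctsz among those lost, 12 under the hybridization scaling and 17 under quantile normalization. Left-out arrays leave fewer samples, and for the other changes the cause was not tested. Pseudocounts of 1 and 50 kept every count within 1.5 times and every median within the spread between replicates.

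The replicate number as a block gave 6 lysosomal members past the threshold in place of 3, with Ctsc, Ctsh and Ctsl lower. Deviations of same-numbered arrays correlated at 0.12, -0.03 and 0.13. Control 1 and control 3 correlated best with their own number, and control 2 did not. Control 1 with IGF-1 3 gave -0.15, and control 3 with IGF-1 1 gave -0.13. The numbers were not taken as pairs, and whether same-numbered arrays shared a preparation was not tested. No called gene changed sign in any setting.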

Other observations

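Over the whole table, 140 tested genes had the 8-letter palindrome TCACGTGA in their promoter. Of these 8 rose and 20 fell with IGF-1 by the same test. Their median log2 difference was -0.04, with a range from -0.87 to 0.69. Over all 6895 genes tested 7.05% were higher and 8.05% lower, but the 140 came from the 5676 tested genes with a promoter. The shares among those 5676 were not counted. Nor was the count made with scaling to the hybridization controls, where 18.2% of all genes were higher and 2.44% lower. Ifi30 was the 1 further lysosomal gene that both held the palindrome and rose. The genes were grouped by this motif after the results of the members were known.

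Laptm4b, a lysosomal membrane protein gene singled out after its values were seen, read 368, 329 and 225 in the controls and 221, 582 and 193 with IGF-1, so that IGF-1 2 stood above the other 5 arrays (difference -0.03 ± 0.33, SE, n = 3 per group, limma adjusted p = 0.96).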
